A study of Mus musculus with 67 samples.

Results

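The elements described here are the accessible chromatin regions whose nearest annotated gene is Nkx2-2, Nkx2-9, Nkx2-1 or Nkx2-4. The annotation gave 14 such elements and 12 of them had values, out of 111638 elements with values in all. They were 7 of 7 elements of Nkx2-9, 2 of 3 of Nkx2-1 and 3 of 4 of Nkx2-4, while no element carried the name Nkx2-2. Accessibility had been measured by CaTS-ATAC, an ATAC-seq assay in which fixed cells are transposed, stained for intracellular transcription factors and sorted. The 67 samples came from wild-type HM1 mouse embryonic stem cells, a single line, differentiated toward spinal cord with retinoic acid and the Smoothened agonist SAG, which activates the Sonic hedgehog (Shh) pathway. NMPs, the neuromesodermal progenitors from which the cultures pass to neural identity, were taken at day 3 without SAG in 3 samples. SOX2+ neural progenitors (NPs) were sorted at days 4, 5 and 6. The p0-1 NPs (PAX6+ NKX6.1-, 17 samples) came from 0 and 10 nM SAG, p2 NPs (NKX6.1+ PAX6+, 18 samples) from 10 and 100 nM, and pMN (OLIG2+, 15 samples) and p3 NPs (NKX2.2+ OLIG2-, 14 samples) from 100 and 500 nM. These make 25 conditions, 17 with 3 samples and 8 with 2. Cell type and SAG concentration cannot be told apart between p0-1 and either pMN or p3. Reads within elements numbered 9298160 to 29985325 per sample (median 20254011), and the lowest 2 totals were those of replicates 1 and 2 of p3 at day 4 and 100 nM SAG.

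The Nkx2 genes encode homeodomain transcription factors. In the ventral neural tube Nkx2-2 and Nkx2-9 are induced by high Shh signaling in the p3 domain next to the floor plate, where NKX2.2 acts largely as a repressor of genes of the neighboring progenitors such as Olig2 and Pax6. Nkx2-1 and Nkx2-4 are close relatives best known from the ventral forebrain and hypothalamus, and Nkx2-1 also from thyroid and lung. The genes lie in linked pairs, Nkx2-9 beside Nkx2-1 on mouse chromosome 12 and Nkx2-2 beside Nkx2-4 on chromosome 2.

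Elements are named by gene and by their distance in bp from its transcription start site (TSS), negative upstream. For Nkx2-9 they lay at +8391, +3032, -344, -5402, -8166, -20077 and -23917. The -344 element was annotated as promoter-TSS and contained the TSS in a width of 3958 bp (chr12:56611650-56615607, mm10), and the other Nkx2-9 elements were annotated as intergenic and were 304 to 1184 bp wide. The Nkx2-1 elements were at +1559 (intron 1 of 2 of Nkx2-1, 4746 bp wide and containing the TSS) and at -4296 (intergenic). The Nkx2-4 elements were at +634 (the single intron of Nkx2-4, 2616 bp wide and containing the TSS), and at +16111 and +18521, in introns 28 and 27 of Xrn2, which encodes a nuclear exoribonuclease. The largest element by level was the Nkx2-9 promoter, with a mean over all samples of 1348 normalized counts (reads divided by the size factor of the sample), above 97.5% of all elements. In 5 of 12 elements this mean was above 100.

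The central 300 bases of 4 distal elements are printed because their accessibility separates the cell types in different ways, as described further on. All are read on the + strand of mm10. Capitals mark the letters searched for: TGTTTAC of FOXA factors, TGGGTGGTC of GLI factors, ACAATGG of SOX factors and the E-box CAGCTG, on either strand, and TNAAGTG of NKX2 factors and TTAATTA of NKX6 factors, which do not occur in these 4 windows. No marked letters overlap. The Nkx2-9 -5402 window spans chr12:56618537-56618836, -8166 spans chr12:56621301-56621600, -20077 spans chr12:56633212-56633511 and the Nkx2-4 +18521 window spans chr2:147066675-147066974.
Nkx2-9 -5402: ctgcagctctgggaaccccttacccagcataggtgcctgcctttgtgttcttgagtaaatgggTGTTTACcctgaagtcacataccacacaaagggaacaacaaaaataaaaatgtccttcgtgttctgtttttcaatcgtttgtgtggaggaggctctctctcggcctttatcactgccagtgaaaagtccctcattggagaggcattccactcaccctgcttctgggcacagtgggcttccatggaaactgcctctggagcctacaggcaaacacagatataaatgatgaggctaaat
Nkx2-9 -8166: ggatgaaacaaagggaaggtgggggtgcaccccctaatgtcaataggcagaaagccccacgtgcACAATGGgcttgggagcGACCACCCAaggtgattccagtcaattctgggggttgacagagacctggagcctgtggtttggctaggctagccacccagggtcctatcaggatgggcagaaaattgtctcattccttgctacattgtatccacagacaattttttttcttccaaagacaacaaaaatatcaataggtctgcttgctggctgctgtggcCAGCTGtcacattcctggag
Nkx2-9 -20077: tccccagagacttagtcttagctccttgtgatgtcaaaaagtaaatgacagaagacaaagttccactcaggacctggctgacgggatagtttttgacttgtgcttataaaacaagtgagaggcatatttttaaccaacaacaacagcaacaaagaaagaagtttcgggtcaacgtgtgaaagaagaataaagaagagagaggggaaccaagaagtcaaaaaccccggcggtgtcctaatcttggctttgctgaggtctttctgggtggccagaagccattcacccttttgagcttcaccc
Nkx2-4 +18521: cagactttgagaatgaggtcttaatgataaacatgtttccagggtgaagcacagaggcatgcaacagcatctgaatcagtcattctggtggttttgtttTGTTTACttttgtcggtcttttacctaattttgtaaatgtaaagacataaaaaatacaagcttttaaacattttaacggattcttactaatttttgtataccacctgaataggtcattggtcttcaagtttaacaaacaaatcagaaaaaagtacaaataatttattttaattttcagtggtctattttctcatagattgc

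The FOXA letters stood in the -5402, Nkx2-1 +1559 and Nkx2-4 +18521 windows and in 4.96% of the windows of all 111638 elements. The GLI letters, on the - strand, stood in the -8166 window only among the 12, against 0.392% of all elements, and the same window held the SOX letters (7.43% of all) and an E-box (21.1% of all). Of the remaining windows, -23917 held the NKX6 letters (4.61% of all) at 2 overlapping positions and Nkx2-4 +634 held the NKX2 letters (15.0% of all), and the other 6 held none. The +18521 window had 31.0% G and C, and 0.465% of all elements had less. The -5402 window covers nearly all of that element, whereas most of the promoter element lies outside its window. These matches are descriptions of sequence.

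The Nkx2-9 promoter was accessible in every cell type and its level was graded from p0-1 through p2 to pMN and p3. In NMPs it was 927, 877 and 697. In p0-1 NPs at day 6 the 5 samples were 530, 515, 794, 743 and 651, and in p2 NPs at day 6 they ran from 879 through a median of 1168 to 1451. In pMN at day 6 the samples were 1786, 2159, 2113 and 2305, and in p3 2137, 2026, 1874 and 1619. The order of the means was thus p0-1 (647 ± 124, SD, n = 5), p2 (1167 ± 274, n = 6), p3 (1914 ± 224, n = 4) and pMN (2091 ± 219, n = 4), and the last pair overlapped. The p3 and pMN samples overlapped at day 4 too, with means of 1927 ± 224 and 1772 ± 268, and at day 5 every p3 sample (2235 to 2474) was above every pMN sample (1576 to 2173).

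Tests used limma on the deposited log2-scale VST values (DESeq2's variance-stabilizing transformation), with Benjamini-Hochberg adjustment over every element that averaged more than 100 across both groups. A call required adjusted p below 0.01 as well as a ratio of mean normalized counts above 4. The promoter was called once, in p3 against p0-1 at day 5, where the mean was 2376 against 587, a 4.05-fold difference (VST difference 2.02 ± 0.122 SE, adjusted p = 1.48e-08). The fold was just above 4, and without the lowest p0-1 sample (435) it was under 4. At day 5 it differed from pMN by 1.27-fold (0.36 ± 0.0839, adjusted p = 0.00318), past the p threshold and short of the fold. At day 6 the difference from pMN was -0.13 ± 0.101 (adjusted p = 0.362).

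**Figure D1:**
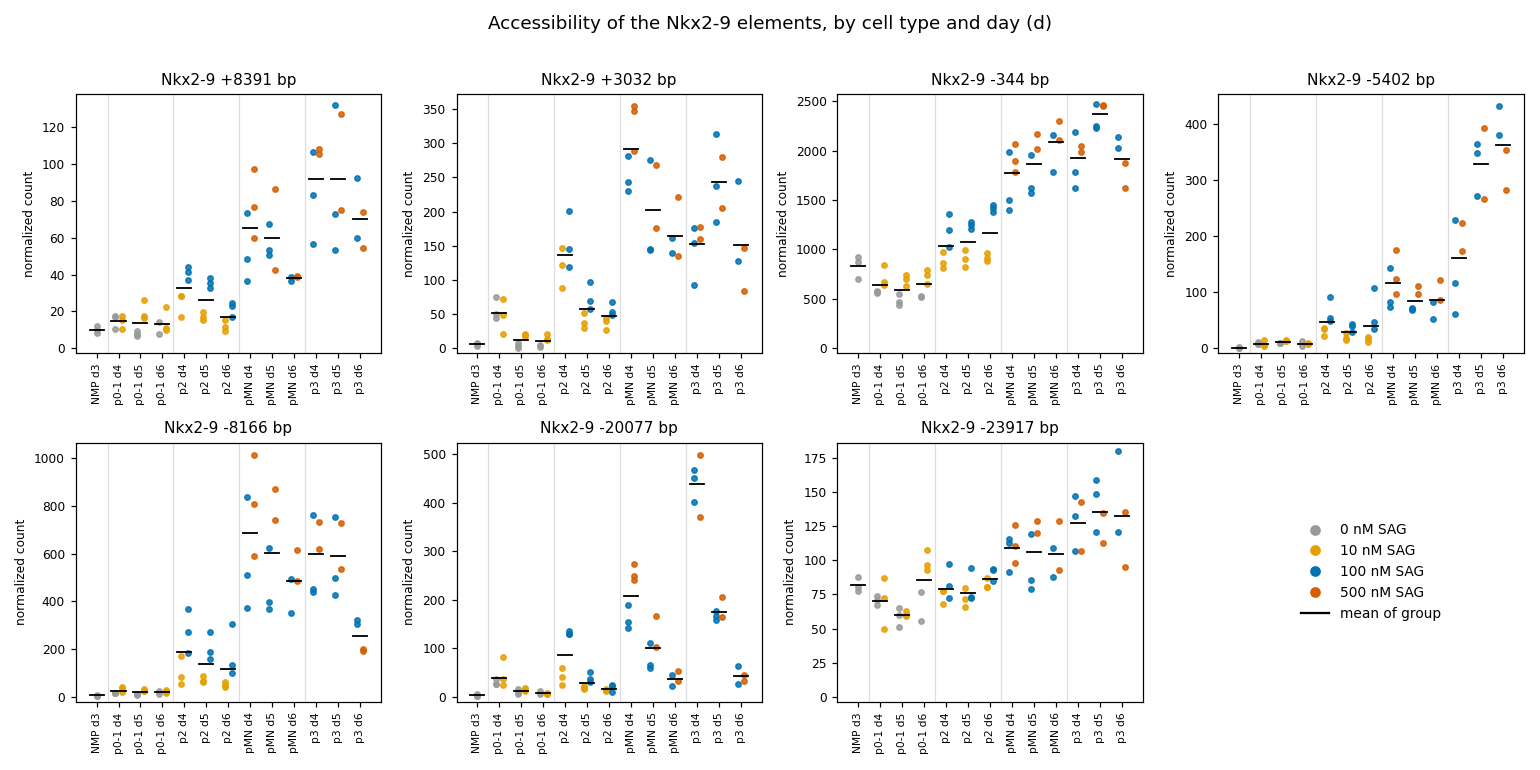
Normalized counts (vertical axes, each panel with its own linear scale from 0) of the 7 Nkx2-9 elements in NMPs at day 3 and in each sorted type at days 4 to 6, points being samples colored by SAG concentration and black lines the group means. The -5402 element is highest in p3 at days 5 and 6, -8166 is high in pMN and p3, and -20077 has a lower mean on each later day in each NP type.

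The -5402 element was the 1 member called between p3 and pMN. Its pMN means at days 5 and 6 (83.8 and 85.3) were under 100, so on those days it reached the test through p3 alone. In NMPs it had 0, 1 and 1 reads. At day 4 its level was 60.6, 116, 229, 174 and 223 in p3 and ran from 73.1 through a median of 110 to 176 in pMN, so the groups overlapped. By day 5 the p3 samples were 348, 272, 364, 266 and 393, and by day 6 they were 381, 432, 282 and 354. The pMN samples were 72.4, 69, 69.3, 97.4 and 111 at day 5, and 52.0, 82.6, 85.2 and 121 at day 6. The lowest p3 sample was therefore above the highest pMN sample on both days. In p2 at day 6 the samples ran from 11.4 through 26.6 to 107, and in p0-1 they were between 4.71 and 11.9.

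Across the 12 elements, p3 against pMN gave 0 calls of 8 tested at day 4 (background 0.189% called higher and 1.12% lower in p3), 0 of 8 at day 5 (2.02% and 3.75%), and 1 of 8 at day 6 (5.1% and 6.07%). At unadjusted p under 0.05 there were 3, 6 and 4 of 8, where 37.4%, 54.6% and 49.5% of all elements tested had one. The 1 call was the -5402 element, with 362 ± 62.7 (n = 4) in p3 and 85.3 ± 28.4 (n = 4) in pMN, a 4.25-fold difference (VST difference 1.97 ± 0.224, adjusted p = 7.16e-05). Each n of 4 was replicates 2 and 3 at both 100 and 500 nM SAG. The fit took these as independent, though samples with the same number may share a differentiation. At day 5 the difference was about as large (1.83 ± 0.153, adjusted p = 4.17e-07), and the fold of 3.92 was just under the threshold, so that leaving out any of 4 single samples, 100 nM replicate 2 or 500 nM replicate 2 of p3 or 500 nM replicates 2 or 3 of pMN, gave 1 call. Within p3 the level at day 5 was 2.05-fold that at day 4 (1.09 ± 0.277, adjusted p = 0.00623). The call at day 6 was lost without 100 nM replicate 3 of p3 (difference 1.88) or 100 nM replicate 2 of pMN (1.79), where the fold was no longer above 4, and with 500 nM SAG alone (1.52, adjusted p = 0.0145). The samples of p3 and pMN did not overlap at 2, 4 and 3 of the 8 members tested on days 4, 5 and 6, against 17.9%, 37.7% and 43.7% of all elements. In the median over the tested members the difference at day 6 was 0.01, beside 0.01 over all elements tested.

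The change between days in the difference of p3 from pMN was itself tested, a comparison added after the values were seen and called at an adjusted p under 0.01 alone, which 3.7% of all elements passed upward and 6.72% downward. From day 4 to day 6 the difference at -5402 grew by 1.54 ± 0.402 (adjusted p = 0.0126), which missed the threshold, and 0 of 8 members passed (4 of 8 had an unadjusted p under 0.05, as had 27.1% of all elements). At -20077 the change was -0.95 ± 0.292 (adjusted p = 0.0325) and at -8166 it was -0.79 ± 0.306 (adjusted p = 0.0948). With the replicate number as a block in the fit, the adjusted p was 9.98e-05 at -5402, 0.0212 at -20077 and 0.0124 at -8166. The result at -5402 thus depended on the block, with which 6347 of 31716 elements passed.

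The -20077 element was most accessible at day 4 and then fell in p3. In NMPs it was 6.06, 2.7 and 2.15, and at day 4 the p3 samples were 402, 468, 451, 499 and 370. The pMN samples at day 4 ran from 143 through 215 to 274, the p2 samples from 24.2 through 94.9 to 136 and the p0-1 samples from 23.6 through 31.6 to 81.2. Every p3 sample was thus above every sample of the other types. In p3 the level was then 158, 177, 166, 206 and 165 at day 5 and 64.3, 26.4, 45 and 32 at day 6. At day 6 it overlapped with pMN, which had 22.4, 44.1, 32.1 and 52.5.

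At day 4 the p3 mean at -20077 was 438 ± 52.0 against 208 ± 53.9 in pMN, a 2.10-fold difference (VST difference 1.06 ± 0.158, adjusted p = 0.000111) that was past the p threshold and short of a fold of 4. From day 5 to day 6 the p3 mean fell from 175 to 42.0 (VST difference -1.84 ± 0.199, adjusted p = 0.000414), the 1 call of 9 members tested, in a comparison where 0.0248% of all elements were called lower and 0.245% higher. The day 6 mean was under 100, so the element reached this test through day 5 alone and could only be called lower. The call was lost, leaving 0 calls, without 100 nM replicate 3 or 500 nM replicate 3 of day 6, or without 500 nM replicate 2 of day 5. From day 4 to day 5 the fall was to 0.399 of the level (-1.26 ± 0.112, adjusted p = 1.22e-06), short of the fold, and 0 of 8 members were called in that comparison (2.42% of all elements higher and 0.277% lower), with 5 of 8 at an unadjusted p under 0.05, beside 49.4% of all elements. The means also went down over days 4, 5 and 6 in pMN (208, 101 and 37.8), p2 (87.0, 29.2 and 16.6) and p0-1 (38.6, 12.7 and 7.89), which was not tested.

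The -8166 element, the one with the GLI letters, was high in both ventral types. In NMPs it was 4.85, 8.09 and 4.31. At day 4 it reached 438, 453, 760, 620 and 731 in p3 and ran from 370 through 698 to 1015 in pMN. At day 5 the p3 samples were 426, 499, 754, 537 and 728 and the pMN samples 370, 397, 622, 742 and 873. The types overlapped on both days, and the differences were -0.15 ± 0.227 (adjusted p = 0.634) and 0.02 ± 0.233 (adjusted p = 0.959). At day 6 they separated, with p3 at 305, 321, 201 and 193 and pMN at 350, 496, 484 and 615. The p3 mean was then 0.525 of the pMN mean (255 ± 67.5 against 486 ± 109, VST difference -0.91 ± 0.212, adjusted p = 0.00582), past the p threshold and short of the fold. In p3 itself the level at day 6 was 0.433 of that at day 5 (difference -1.17 ± 0.205, adjusted p = 0.00332). The p2 samples at day 6 ran from 40.8 through 80.7 to 307 and the p0-1 samples lay between 11.8 and 28.1.

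The +3032 element, downstream of the gene, was higher in pMN than in p3 at day 4, with pMN at 231 through 285 to 354 and p3 at 92.9, 176, 154, 160 and 178, the groups not overlapping (VST difference -0.90 ± 0.162, adjusted p = 0.000604, 0.522 of the pMN level, past the p threshold and short of the fold). At day 5 the types overlapped, p3 at 237, 185, 313, 205 and 279 and pMN at 146, 144, 275, 176 and 268. At day 6 they overlapped as well, and the difference of -0.18 ± 0.284 had an adjusted p of 0.664. The means were 152 and 291 at day 4 and 244 and 202 at day 5 (difference 0.29 ± 0.199, adjusted p = 0.25). In p0-1 the element was low, at 0 to 21.2 at day 5 and 2.35 to 21.1 at day 6.

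The +8391 element was 54.4 to 92.3 in p3 at day 6 and 36.6 to 39.1 in pMN, 9.42 to 24.7 in p2 and 7.93 to 22.1 in p0-1. It stayed under a mean of 100 in each comparison and so was not tested, and without the filter its adjusted p at day 6 was 0.00636 against pMN. The -23917 element was the flattest of the Nkx2-9 elements, between 49.5 and 180 in all 67 samples. Its p3 mean at day 6 was 133 ± 35.4, against 105 ± 18.2 in pMN (difference 0.29 ± 0.203, adjusted p = 0.294).

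**Figure D2:**
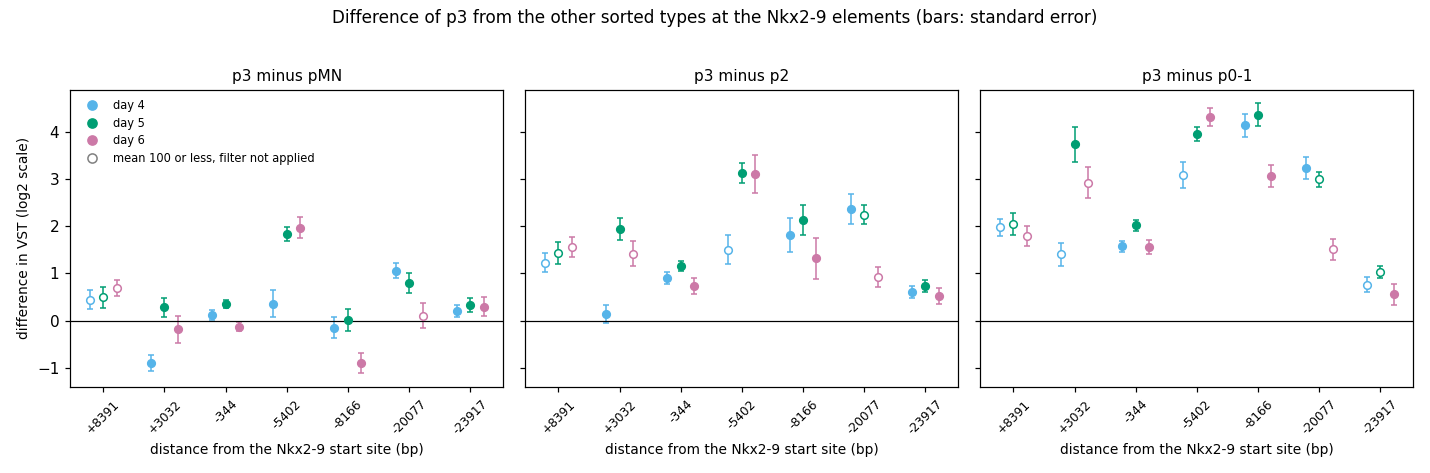
VST difference (log2 scale, vertical axis) of p3 from pMN, p2 and p0-1 at each Nkx2-9 element, ordered by distance from the TSS on the horizontal axis, with standard errors and a color for each day. Against pMN the points at -5402 are at 1.83 and 1.97 on days 5 and 6, while those at -8166 are at or below 0.02. Open points are elements with a mean of 100 or less, fitted without the filter.

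Several Nkx2-9 elements were called in p3 against the more dorsal types. Against p2, p3 was called higher at -20077 at day 4 (1 of 7 members, background 0.304% higher and 1.13% lower), at +3032, -5402 and -8166 at day 5 (3 of 7, background 2.01% and 5.24%), and at -5402 at day 6 (1 of 7, background 4.88% and 7.05%). Against p0-1 it was called higher at -8166 and -20077 at day 4 (2 of 5, background 0.833% and 0.751%), at +3032, -344, -5402 and -8166 at day 5 (4 of 6, background 2.38% and 5.11%), and at -5402 and -8166 at day 6 (2 of 7, background 6.26% and 6.44%). No member was called lower. Some p2 samples came from 10 nM SAG, at which no p3 samples were sorted. The calls against p2 thus mix cell type with concentration in part. At day 5, -8166 was 426, 499 and 754 in p3 at 100 nM. In p2 it was 158, 186 and 273 at 100 nM and 62.4, 65.3 and 87.3 at 10 nM. At 100 nM the -5402 element was 348, 272 and 364 in p3 and 39.3, 28.4 and 43.7 in p2 on that day. Calls against p2 at 100 nM alone were not tested. Without 100 nM replicate 3 of p3 at day 5 the count against p2 was 1, and without 100 nM replicate 3 of p3 at day 6 the count against p0-1 was 1. The widest differences from p0-1 were at -5402 on day 6 (362 against 8.18, VST difference 4.31 ± 0.198, adjusted p = 1.2e-07) and at -8166 on day 5 (589 against 18.6, 4.37 ± 0.241, adjusted p = 7.02e-09). The filter, which asks for a mean above 100 over both groups, leaves out some elements that are low in the group set against p3. Others that are low there pass it through p3 alone, as -5402 at day 6 and -8166 at day 5 did against p0-1. The members tested are thus in part those that are high in p3. Without the filter the calls against p0-1 were 4, 7 and 6 of 12 members at days 4, 5 and 6, where 3.2%, 11.3% and 16.3% of all elements were called.

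The pMN NPs gave calls at some of the same elements. Against p0-1, pMN was called higher at +3032, -8166 and -20077 at day 4 (3 of 6, background 0.507% higher and 0.0134% lower), and at -8166 at day 5 (1 of 4, 1.54% and 0.43%) and at day 6 (1 of 5, 2.25% and 0.733%). In each of these the p0-1 mean was under 100 (51.7, 24.0 and 38.6 at day 4). The elements thus passed the filter through pMN alone and could only be called higher. The pMN mean at -8166 was 688, 601 and 486 on the 3 days, beside 24.0, 18.6 and 20.2 in p0-1. Without any single p0-1 sample of day 5 the count at day 5 was 2. These comparisons and those of p3 with p0-1 use the same p0-1 samples.

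From NMPs to p3 NPs at day 4, 3 of 8 members tested were called higher, -5402, -8166 and -20077, and 0 lower, where 13.9% of all elements were called higher and 7.85% lower. All 3 had NMP means far under 100 (0.809, 5.75 and 3.64). They passed the filter through p3 alone and could only be called higher. At -8166 the mean rose from 5.75 to 600 (VST difference 5.23 ± 0.204, adjusted p = 1.04e-12) and at -20077 from 3.64 to 438 (5.08 ± 0.188, adjusted p = 5.95e-13). At -5402 the mean in p3 was 160, against the 0, 1 and 1 reads of the NMP samples. The promoter rose 2.31-fold (1.2 ± 0.124, adjusted p = 1.38e-07), short of a fold of 4. Over the members tested the median difference was 0.88, beside -0.45 over all elements tested. The members behind this median are in part those that passed the filter through 1 group alone.

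Within a sorted type, the level of 2 Nkx2-9 elements differed with the SAG concentration in p2. At -8166 the p2 samples from 10 nM SAG were 81.2, 55.5 and 170 at day 4, 62.4, 65.3 and 87.3 at day 5, and 40.8, 62.2 and 51.3 at day 6. Those from 100 nM were 270, 185 and 370, then 158, 186 and 273, then 99.2, 135 and 307. On each day every 100 nM sample was above every 10 nM sample. At the promoter the 10 nM samples lay between 810 and 999 over the 3 days and the 100 nM samples between 1020 and 1451, again without overlap.

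The comparison of the higher with the lower SAG concentration, taken as the mean of the 3 days, was added after these values were seen, was called at an adjusted p under 0.01 alone and had 2 of 4 members called higher in p2 (background 0.273% higher and 0.408% lower). They were -8166 (VST difference 1.41 ± 0.217, adjusted p = 0.00355) and the promoter (0.50 ± 0.0595, adjusted p = 0.000736). Neither was called without the samples numbered 1 or without those numbered 2, when 0 elements were called in all. In p0-1, 0 of 3 members passed (background 0.142% higher and 0.352% lower, 1 of 3 at an unadjusted p under 0.05, beside 15% of all elements), the promoter giving 0.43 ± 0.0836 (adjusted p = 0.0134). In pMN 0 of 8 passed, with 3 of 8 at an unadjusted p under 0.05 beside 2.76% of all elements, and in p3 0 of 8 passed, with 0 of 8 at an unadjusted p under 0.05 beside 2.45%. Of all elements 0% passed in either type. The difference at -8166 was 0.57 ± 0.177 in pMN and -0.04 ± 0.153 in p3, and at the promoter 0.24 ± 0.082 in pMN and -0.02 ± 0.0669 in p3.

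Between p2 and p3 the SAG difference itself differed by 0.51 ± 0.0897 at the promoter (adjusted p = 0.0219) and by 1.44 ± 0.3 at -8166 (adjusted p = 0.0745), and 0% of all elements passed (0 of 8 members, 5 of 8 at an unadjusted p under 0.05, beside 7.98% of all elements). With the replicate number as a block in the fit, the adjusted p was 0.00178 at the promoter and 0.000532 at -8166, and 236 of 31711 elements passed. The concentrations compared were 10 and 100 nM in p2 and 100 and 500 nM in p3, so the steps are not matched. At day 5 alone, 500 against 100 nM SAG gave 0 calls of 8 members in p3 and in pMN (0% of all elements in both, with a fold above 2), and 0 and 3 of 8 had an unadjusted p under 0.05, beside 0.491% and 2.65% of all elements.

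**Figure D3:**
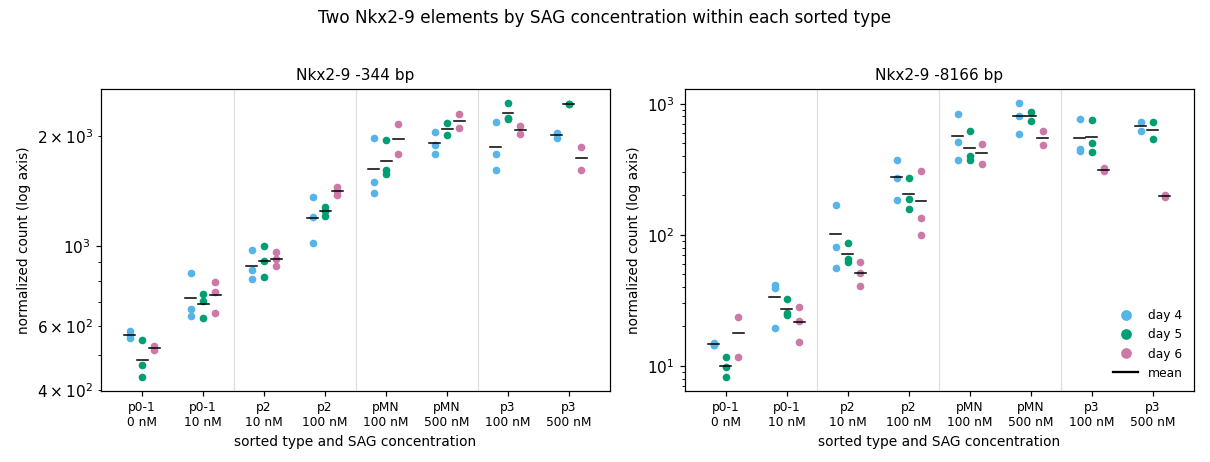
Normalized counts (log axis) of the -344 and -8166 elements of Nkx2-9 by sorted type and SAG concentration, each point a sample colored by day and each line a mean. In p2 the 100 nM samples lie above the 10 nM samples on every day at both elements, and in p3 the 100 and 500 nM samples overlap at days 4 and 5, with the 500 nM samples lower at day 6.

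The summed level of the 44 elements of Olig1, Olig2 and Olig3, of which Olig2 marks pMN, was 9325 to 10228 in p2 from 10 nM and 11689 to 11966 from 100 nM at day 6, and 17705 to 20506 in pMN. At day 4 it was 6135 to 8151 and 6334 to 7666 in p2. The part of such elements in the SAG difference was not tested.

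The Nkx2-1 and Nkx2-4 elements over the gene bodies had another course, with their highest means in NMPs. Nkx2-1 +1559 was 1257, 1240 and 1088 in NMPs, and 717, 745, 728, 529 and 672 in p3 at day 4. In p3 at day 6 it was 397, 518, 385 and 439, and in pMN 342, 363, 348 and 349. From NMP to p3 at day 4 the mean went from 1195 to 678 (VST difference -0.81 ± 0.126, adjusted p = 1.61e-05), past the p threshold and short of the fold. Most elements of the series fell in that comparison. The median difference over all elements tested was -0.45, 26.8% of them were positive and 80.9% had an unadjusted p under 0.05. Nkx2-4 +634 went from 519 ± 37.8 to 328 ± 58.1 (-0.66 ± 0.149, adjusted p = 0.000691) and Nkx2-1 -4296 from 141 ± 11.9 to 83.6 ± 12.7 (-0.68 ± 0.185, adjusted p = 0.00284). Both promoters of the forebrain genes therefore stayed accessible in spinal cord NPs, at means of 435 and 283 in p3 at day 6.

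Within the NPs, Nkx2-1 +1559 was modestly higher in p3. At day 5 the p3 samples were 472, 441, 439, 497 and 505 and the pMN samples 291, 286, 368, 335 and 349, without overlap. The 1.45-fold difference (0.52 ± 0.0865, adjusted p = 0.000214) passed the p threshold and not the fold, and so did those from p2 (0.70 ± 0.0874, adjusted p = 1.24e-05) and p0-1 (0.65 ± 0.0751, adjusted p = 7.8e-06). At day 6 the difference from pMN was 0.29 ± 0.106 (adjusted p = 0.0501). Nkx2-4 +634 differed from pMN by 0.35 ± 0.0889 at day 5 (adjusted p = 0.0054) and by 0.15 ± 0.105 at day 6 (adjusted p = 0.288).

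The 2 elements within Xrn2 introns differed from each other. At +16111 the means were higher on each later day in every NP type. In p3 it was 6.06, 3.79, 10.5, 15.2 and 12.7 at day 4, 72.7, 70.0, 111, 76.9 and 120 at day 5, and 231, 179, 174 and 148 at day 6. In pMN at day 6 it was 257, 216, 233 and 243, and in p2 157 through 166 to 196. The p3 mean rose 2.03-fold between days 5 and 6 (0.94 ± 0.188, adjusted p = 0.00617), short of the fold of 4. Its difference from pMN at day 6 was -0.37 ± 0.143 (adjusted p = 0.0638).

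At +18521, which held the FOXA letters, the level was higher in p3 at days 5 and 6 than in any other sample. The p3 samples were 0, 13.3, 18.4, 17.2 and 18.7 at day 4, 122, 54.7, 88.8, 75.0 and 114 at day 5, and 75.9, 98.7, 93.5 and 89.3 at day 6. The highest sample of any other type on any day was 26.0, in p2 at day 6. The lowest p3 sample at days 5 and 6 was thus above all samples of the other types. Its mean stayed under 100, so it was outside the tests, and without the filter the p3 mean was 5.39-fold that of pMN at day 5 (VST difference 1.83, adjusted p = 5.26e-07) and 5.14-fold at day 6 (1.87, adjusted p = 3.77e-05). It was named after its values were seen.

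**Figure D4:**
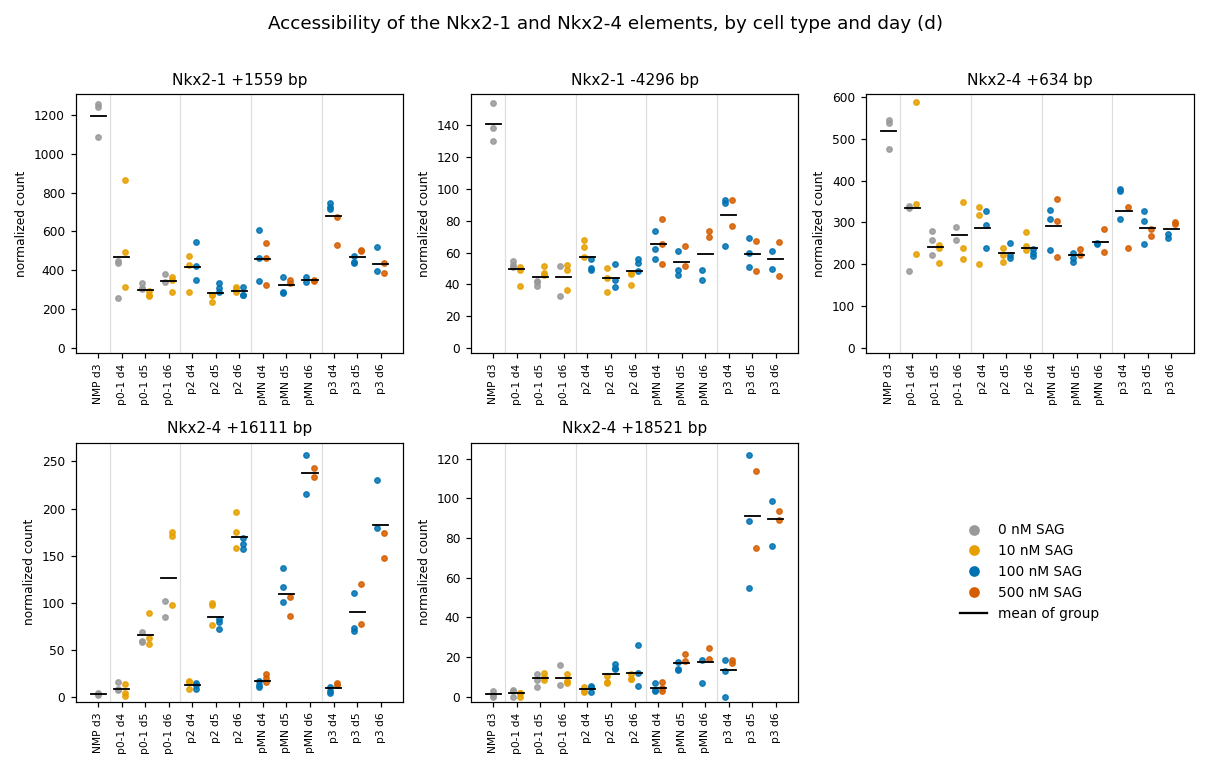
Normalized counts (vertical axes, each panel with its own linear scale from 0) of the Nkx2-1 and Nkx2-4 elements, drawn as for Nkx2-9. The elements over the gene bodies have their highest means in NMPs, +16111 has a higher mean on each later day in all NP types, and +18521 is high only in p3 at days 5 and 6.

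The Nkx2-2 gene is covered by 4 elements that the annotation assigns to 2 overlapping noncoding RNA genes, Nkx2-2os and 6430503K07Rik, and these are described beside the 12. The +46 element of 6430503K07Rik (chr2:147183999-147190942, 6944 bp) contains a Nkx2-2 start site of RefSeq, at position 147186402, and longer Nkx2-2 transcripts start upstream, within the +7059 element. Since p3 cells were sorted for NKX2.2 protein, its levels serve as a check of the sort and carry no test between cell types here. In NMPs it was 1732, 1868 and 1739. In p3 at day 6 it was 3954, 3841, 3829 and 3203, in pMN 2303, 2428, 2628 and 2937, and in p0-1 between 668 and 1003. The p2 samples of that day were 893, 977 and 840 from 10 nM SAG and 1531, 1561 and 1774 from 100 nM. Every p3 sample was above every sample of another type at day 6, and this region was open in all of them. The -2404 element of Nkx2-2os, inside intron 2 of Nkx2-2, was instead highest in pMN at day 6, at 1827, 1974, 1785 and 2053, with p3 at 1601, 1295, 1433 and 1000. At -5639 of Nkx2-2os p3 ran from 319 to 419 and pMN from 243 to 292 at day 6, and at +7059 of 6430503K07Rik p3 ran from 753 to 803 and pMN from 406 to 488.

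Over the 25 condition means the Nkx2-9 elements varied together, with Pearson r on the VST scale from 0.66 (-20077 and -23917) to 0.94 (-344 and -8166), and Nkx2-1 +1559 and Nkx2-4 +634 had r = 0.93. The r of the Nkx2-9 promoter with Nkx2-1 +1559 was 0.19. The conditions are not independent replicates, and these are descriptions. In all, 31744 elements had a mean above 100, and likeness was sought among those annotated to other genes. The most like -5402 were elements of Pdcd1lg2 (r = 0.98), Epha7 (0.97) and Gm1720 (0.97). Those most like the promoter were of Gm815 (0.95), Hsd17b3 (0.93) and 6430503K07Rik (0.93), the last being the +46 element over that Nkx2-2 start site. Those most like Nkx2-1 +1559 were of Mir7680 (0.94), Tor3a (0.94) and Tubb4b (0.93), and those most like Nkx2-4 +634 of Barx2 (0.96), Nbl1 (0.95) and Gsc (0.95).

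At day 6, p3 against pMN, 7 of 24 tested elements of Foxa genes (2 of 3 had elements), which encode pioneer factors of the floor plate and endoderm, were called higher and 1 lower, where 5.1% of all elements were called higher and 6.07% lower (median difference 1.17, beside 0.01 over all). Of 19 tested elements of the Olig genes 1 was called higher and 8 lower (median -1.65). Of 25 tested elements of Nkx6-1 and Nkx6-2 1 was called higher and 1 lower (-0.08), and of 7 elements of Nkx2-3, Nkx2-5 and Nkx2-6, members of the family outside the neural tube, 1 and 0 (0.29). The 52 Foxa elements summed to 13620 to 21050 in p3 and 5580 to 7338 in pMN at day 6. Their part in the differences at -5402 and Nkx2-4 +18521 was not tested. Of the marker lists of other cells, the count of tested elements called higher and lower was 0 and 2 of 14 for V3 neurons, 0 and 2 of 19 for postmitotic neurons, 1 and 1 of 12 for endoderm, 1 and 2 of 14 for hypothalamus, 0 and 0 of 2 for pluripotent cells, and 2 and 7 of 56 for dorsal and intermediate progenitors.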

How the data were processed

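The 67 CaTS-ATAC samples were grouped by their titles. The authors used nf-core/atacseq with mm10 and MACS2, formed consensus elements, counted reads with featureCounts, annotated elements with HOMER, and deposited DESeq2 variance-stabilized (VST) values, which are on a log2 scale. DESeq2 was used by the authors only. The transformation was inverted to normalized counts and to reads, of which 100% of values below 1000 reads came out whole (tolerance 1e-06, largest distance 3.62e-11).

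Groups were compared on VST values with limma 3.58.1 (trend, R 4.3.3) in fits of the groups compared, pooled over SAG concentrations, with Benjamini-Hochberg adjustment over elements whose mean was above 100. Calls needed an adjusted p under 0.01 and a fold above 4 (above 2 between SAG concentrations). The comparisons of SAG within a type and of differences between types or days were added after the values were seen and used the p threshold alone. The script was tested on simulated data. Other tools were Python 3.11.15, numpy 2.4.6, pandas 2.3.3 and scipy 1.17.1. Alternatives were no filter, other fold thresholds, single SAG concentrations, a replicate block, centered samples, log2 of the normalized count plus 1, voom on recovered reads, 1 fit of all samples, and leaving out each sample or replicate number.

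Members and gene lists were chosen with earlier results of these data known. Results of 2 of the gene lists are not reported here. The rule for named elements took, for each gene, the element nearest to the TSS, among those with a mean above 100 in at least 1 condition the 3 with the largest excess and the 1 with the largest deficit of p3 over the mean of the other NP types at day 6, and the one differing most between NMPs and NPs at day 4. The remaining members, -20077 and +18521, were named after their values were seen, as were the elements over Nkx2-2 and the choice of -8166, -20077 and +18521 for printing. The 300 central bases were read from GRCm38.p6, the build mm10 is made from.

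Whether equal replicate numbers pair samples was checked by correlating deviations from group means over elements. Every same-numbered pair was above 0.1 in the comparisons at days 5 and 6, in those of pMN with p0-1, and for SAG within pMN (lowest of all 0.115). This did not hold in the day-4 comparisons of p3 (lowest -0.468, against p0-1), between p3 at days 4 and 5, or in the other added comparisons. In 15 samples the description gave another replicate number than the title, and the title was used.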

Additional observations from a re-analysis of the deposited data

Results flagged for a closer look

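Of 144 combinations of element and group, 5 held a sample far from the others, and chance gives about 1 in 20 groups. At Nkx2-9 +3032 replicate 1 of p3 at day 4 and 100 nM SAG was 92.9 normalized counts, the other p3 samples of that day being 154 to 178. The same library was at 0 at Nkx2-4 +18521, where the others were 13.3 to 18.7, and it had the fewest reads in elements (9298160). At Nkx2-9 -20077 replicate 2 of p0-1 at day 4 and 10 nM was 81.2 (others 23.6 to 37.0), and replicate 2 of p0-1 at day 6 and 0 nM was 12.9 (others 5.95 to 6.99). At Nkx2-1 -4296 replicate 3 of p0-1 at day 4 and 10 nM was 38.9 (others 48.9 to 54.4).

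Differences between groups with an adjusted p under 0.05 in limma were found in 3 results. The difference of p3 from pMN changed between days 4 and 6 by 1.54 at Nkx2-9 -5402 (adjusted p = 0.0126) and by -0.95 at -20077 (adjusted p = 0.0325). The SAG difference at the Nkx2-9 promoter was 0.51 larger in p2 than in p3 (adjusted p = 0.0219), for steps from 10 to 100 nM and from 100 to 500 nM. None of these passed 0.01 without the replicate number as a block. With it the adjusted p in limma was 9.98e-05 at -5402, 0.0212 at -20077 and 0.00178 at the promoter.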

How the results depend on the processing

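Counts of called members moved mainly with the filter and the fold threshold. Without the filter on the mean they were 4, 7 and 6 in p3 against p0-1 at days 4, 5 and 6, 1 and 2 against pMN at days 5 and 6, 5 and 3 against p2 at days 5 and 6, 5 from NMP to p3, 2 from day 4 to day 5, 5, 5 and 4 in pMN against p0-1, 5 for SAG within p2 and 1 for the change between days 4 and 6. With a fold threshold of 2 they were 1 and 1 against pMN at days 4 and 5, 2 against p2 at day 4, 2 and 3 for the steps to days 5 and 6 in p3, and 2 and 2 in pMN against p0-1 at days 5 and 6. With 100 nM SAG alone 1 member was called against pMN at day 5, and with 500 nM alone 0 at day 6. Voom gave 1 for SAG within p2 and 1 for the change between days 4 and 6, as did centered samples for the latter. In all, 284 counts stayed within 1.5 times and 50 did not.

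Leaving out single samples gave 0 to 1 calls against pMN at days 5 and 6, 1 to 4 against p2 at day 5, 1 to 2 against p0-1 at day 6, 0 to 1 from day 5 to day 6, and 1 to 2 in pMN against p0-1 at day 5. It gave 3 to 4 in p3 against p0-1 at day 5 and 2 to 4 from NMP to p3 at day 4. Leaving out a replicate number gave 0 to 2 for SAG within p2 and 0 to 1 for the change between days 4 and 6. Among single elements at day 6, the difference of p3 from pMN reversed at +3032 (0.22 with 100 nM alone, and from -0.43 to 0.041 with single samples left out, the last without 500 nM replicate 3 of p3) and at the promoter (0.083 with 100 nM alone). The causes were not tested.

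With the replicate number as a block no count of called members changed in the 17 planned comparisons. In 3 of the added ones, where not every same-numbered pair was above 0.1, the block gave calls that the main fit did not. It gave 1 call for SAG within p0-1, at the Nkx2-9 promoter. There were 2 for the SAG difference of p2 against p3, at the promoter and -8166, and 1 for the change between days 4 and 6, at -5402.

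Groups of 2 to 6 samples, and pairs in 8 conditions, limit the precision of each difference. Groups pooled over SAG can hold the same replicate number at 2 concentrations, and fits without the block took such samples as independent. The filter keeps some elements that are low in 1 group out of the tests and lets others in through the other group alone.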
